A study of Caenorhabditis elegans with 12 samples.

Results

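The longer protein-coding genes of the *C. elegans* mitochondrial genome (mtDNA) were lower in worms fed the Δ*lpp* mutant of *E. coli* than in worms fed the control strain BW25113. They are *nduo-1*, *nduo-2*, *nduo-4*, *nduo-5*, *nduo-6*, *ctc-1*, *ctc-2*, *ctc-3*, *ctb-1* and *atp-6*, chosen by name, and they make up 10 of the 46926 features in the deposited table. Of these, 9 were found under their own name. No feature was named *nduo-1*, and the unnamed feature WBGene00010959, which the Ensembl annotation of WBcel235 calls ND1, was taken for it and is called ND1 here. All 10 passed the filter on low counts and were tested among 15266 genes.

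The worms of 6 libraries were fed the Δ*lpp* mutant, which lacks *lpp*, the gene of an abundant lipoprotein in the bacterial outer membrane. The worms of the other 6 libraries were fed BW25113, in which *lpp* is intact. Both groups were wild-type N2 animals on an agar medium that the study's methods call high-fat, RNA was taken from whole worms, and ribosomal RNA was removed. The worms' age at RNA extraction is not given in the sources used here, nor is it stated whether the libraries came from separate cultures, so p-values measure the spread between these libraries.

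Mitochondria make ATP by passing electrons from NADH and succinate along complexes I to IV of the respiratory chain to oxygen. The proton gradient built on the way drives ATP synthase. Most subunits of these complexes are encoded in the nucleus, but a few that sit in the inner membrane are encoded in the mtDNA and made on mitochondrial ribosomes, and complex II has none of these. In *C. elegans* the mtDNA genes all lie on the same strand, and the RNAs are cut from longer precursors. In whole worms, fewer cells of a type and less RNA per cell cannot be told apart.

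Total counts ran between 21146863 and 23563539 in the Δ*lpp* libraries and between 20254422 and 24442397 in the BW25113 libraries. The scaling factors of edgeR's TMM method, which set libraries on a common scale, did not overlap between the groups, at 1.08 to 1.27 in the Δ*lpp* libraries and 0.794 to 0.988 in the BW25113 libraries. The ribosomal RNA left after removal took 0.408% to 0.567% of counts in the Δ*lpp* libraries and 1.24% to 2.69% in the BW25113 libraries. A log2 fold change is given below on the TMM scale, where the median over all tested genes was 0.05. On library size alone that median was 0.50, a shift of 0.45, and each log2 fold change is to be read against it.

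The 10 genes lie between 113 and 13272 on the mtDNA of WBcel235, all on the plus strand. The order is *nduo-6* (113 to 549), ND1 (1763 to 2635), *atp-6* (2634 to 3235), *nduo-2* (3389 to 4269), *ctb-1* (4504 to 5621), *ctc-3* (5678 to 6449), *nduo-4* (6506 to 7808), *ctc-1* (7827 to 9428), *ctc-2* (9649 to 10348) and *nduo-5* (11691 to 13272). The annotation gives each as a protein-coding gene. ND1 and *atp-6* share 2 bases, *nduo-2* overlaps a tRNA gene by 28 bases and *ctc-1* overlaps another by 7 bases. Reads over those bases cannot be assigned to one gene by position alone.

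All 10 genes were called lower in Δ*lpp*-fed worms, where 15.6% of all tested genes were called lower. A call needed a log2 fold change beyond 1 in size together with an adjusted p under 0.05. The log2 fold changes lay between -2.16 and -1.24 with a median of -1.77, which is 2.36-fold to 4.48-fold lower. The largest adjusted p among them was 3.46e-05, by the quasi-likelihood test of edgeR with p-values adjusted after Benjamini and Hochberg over all tested genes. On library size alone 9 of the 10 were called lower, against 11.4% of all tested genes, with a median of -1.31, and *ctc-1* at -0.78 fell short of the fold limit. On log2(TPM + 1) values 9 were called, against 8.15% of all tested genes, and *ctc-1* at -0.67 again fell short. TPM scales each count for the length of the gene and for the sum over the library. Every Δ*lpp* library lay below every BW25113 library for all 10 genes in TPM, which was so for 13.5% of all tested genes.

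Together the 10 genes took 1.13%, 1.08%, 1.02%, 1.199%, 0.563% and 0.538% of all counts in Δ*lpp* replicates 1 to 6. In BW25113 replicates 1 to 6 they took 2.37%, 2.54%, 1.76%, 1.68%, 2.29% and 2.32%. The groups did not overlap, and replicates 5 and 6 of the Δ*lpp* group were the lowest of the 12 libraries. The mean share was 0.922% ± 0.293 in the Δ*lpp* libraries and 2.16% ± 0.351 in the BW25113 libraries (SD, n = 6 each). With Δ*lpp* replicates 5 and 6 both left out, a step chosen after seeing the data, all 10 genes were still called lower, between -1.94 and -1.01 with a median of -1.55.

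**Figure D1:**
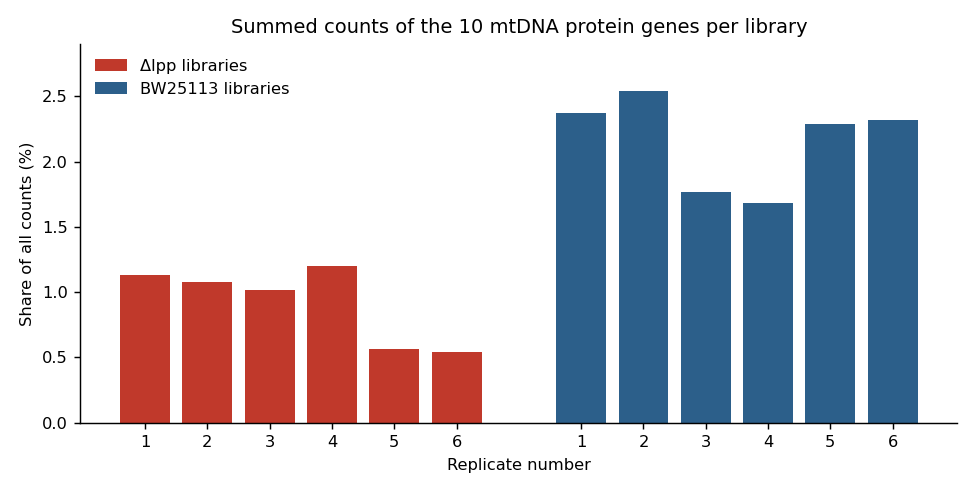
Bars give the summed counts of the 10 mtDNA protein genes as a percent of all counts in each library, with the replicate number on the x axis, Δ*lpp* libraries in red and BW25113 libraries in blue. The highest Δ*lpp* library (1.199%) lies below the lowest BW25113 library (1.68%).

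Of the 5 complex I genes, *nduo-2*, *nduo-4* and *nduo-5* encode the proton-pumping subunits of the membrane arm, ND1 encodes a subunit next to the ubiquinone site, and *nduo-6* encodes another membrane subunit. *nduo-5* had a lowest, median and highest level of 155, 424 and 509 TPM in the Δ*lpp* libraries, against 639, 939 and 1031 TPM in the BW25113 libraries. The log2 fold change of *nduo-5* was -1.87 (SE 0.277, adjusted p = 3.46e-05). Replicates 5 and 6 of the Δ*lpp* group, at 173 and 155 TPM, were lower than the other 4 libraries of that group, which held 368 to 509 TPM. *nduo-4* had 147, 389 and 465.8 TPM in the Δ*lpp* libraries, against 680, 906 and 1028 TPM in the BW25113 libraries. The log2 fold change of *nduo-4* was -1.98 (SE 0.248, adjusted p = 4.29e-06), with the same 2 libraries lowest.

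ND1 ranged from 653 TPM over a median of 1168 to 1328 TPM in the Δ*lpp* libraries, against 1888, 2356 and 2518 TPM in the BW25113 libraries. Its log2 fold change was -1.67 (SE 0.161, adjusted p = 4.72e-08), and the highest Δ*lpp* library reached 70.4% of the lowest BW25113 library. *nduo-6* had the narrowest Δ*lpp* range of the 10 genes relative to its level, with 80.5, 95.1 and 99.3 TPM, against 172, 212 and 236 TPM in the BW25113 libraries. Its log2 fold change was -1.67 as well, with the smallest standard error of the 10 (0.109, adjusted p = 1.87e-10). Replicates 5 and 6 of the Δ*lpp* group, lowest for the other 9 genes, held the highest *nduo-6* TPM of their group, 99.3 and 99.2. In counts and on the TMM scale replicate 3 of that group was highest instead, with 571 counts against 526 and 503 in replicates 5 and 6.

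*nduo-2* was listed at far lower levels than the genes on either side of it, for which the cause was not tested. How reads with several matches were counted is not given in the sources used here. It had 0.63, 2.76 and 3.94 TPM in the Δ*lpp* libraries and 4.05, 6.44 and 8.31 TPM in the BW25113 libraries. These rest on 11 to 70 counts in the Δ*lpp* libraries and 74 to 167 counts in the BW25113 libraries. The groups came close to each other, since the highest Δ*lpp* library reached 97.3% of the lowest BW25113 library. The log2 fold change of *nduo-2* was -1.91 (SE 0.281, adjusted p = 1.02e-05), the largest standard error of the 10.

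*ctb-1* encodes cytochrome b, the subunit of complex III that carries both of its ubiquinone sites. It had 727, 1259 and 1466 TPM in the Δ*lpp* libraries, against 2426, 3264 and 3515 TPM in the BW25113 libraries. The log2 fold change was -1.998 (SE 0.165, adjusted p = 5.42e-09), and the highest Δ*lpp* library reached 60.4% of the lowest BW25113 library. *atp-6* encodes subunit a of ATP synthase, which forms the proton path at the ring of the enzyme. It had 944, 1721 and 2172 TPM in the Δ*lpp* libraries, against 3563, 5268 and 5822 TPM in the BW25113 libraries. *atp-6* had the lowest log2 fold change of the 10 genes, -2.16 (SE 0.176, adjusted p = 4.36e-09). Its short gene model makes its TPM depend on the length the authors divided by, which the values put at 25.2% of that of *ctc-1* where the gene lengths give 37.6%.

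The 3 *ctc* genes encode the core of complex IV, cytochrome c oxidase. *ctc-1* encodes the subunit where oxygen is reduced, *ctc-2* the subunit that takes electrons from cytochrome c, and *ctc-3* a core subunit without a metal centre. *ctc-3* had 1673, 2912 and 3207 TPM in the Δ*lpp* libraries, against 4113, 5486 and 5999 TPM in the BW25113 libraries (log2 fold change -1.59, SE 0.163, adjusted p = 9.71e-08). *ctc-2* had 979, 2051 and 2448 TPM in the Δ*lpp* libraries, against 2805, 3956 and 4535 TPM in the BW25113 libraries (log2 fold change -1.65, SE 0.213, adjusted p = 3.70e-06). *ctc-1* was the least lowered of the 10, with 826, 1467 and 1581 TPM in the Δ*lpp* libraries, against 1628, 2091 and 2330 TPM in the BW25113 libraries. Its log2 fold change was -1.24 (SE 0.161, adjusted p = 2.37e-06), and the highest Δ*lpp* library reached 97.2% of the lowest BW25113 library.

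**Figure D2:**
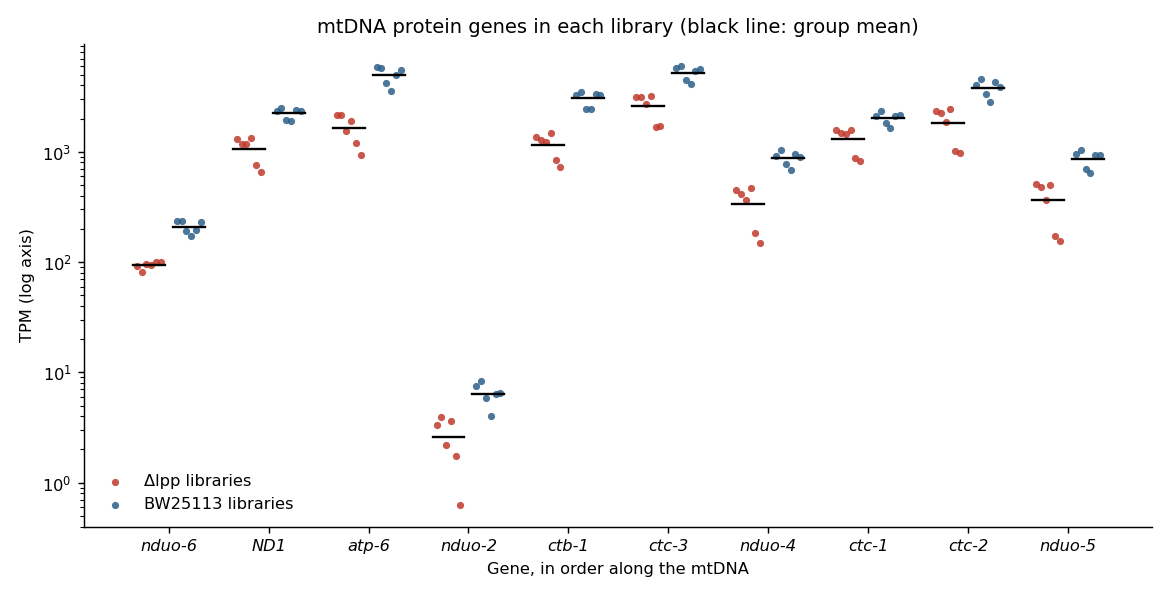
Points give the TPM of each of the 10 mtDNA genes in each library on a log axis, in the order of the genes along the mtDNA, with Δ*lpp* libraries in red to the left of BW25113 libraries in blue and a black line at each group mean. All Δ*lpp* points lie below all BW25113 points of the same gene, and replicates 5 and 6 of the Δ*lpp* group are its lowest points for every gene but *nduo-6*.

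The order of the TPM levels differed between the diets in its upper and middle ranks. In the Δ*lpp* group *ctc-3* was highest at a mean of 2591 ± 719 TPM, then came *ctc-2* (1818 ± 665), *atp-6* (1651 ± 516), *ctc-1* (1299 ± 350), *ctb-1* (1150 ± 298) and ND1 (1062 ± 286). In the BW25113 group *ctc-3* was also highest at 5217 ± 746 TPM, then came *atp-6* (4968 ± 912), *ctc-2* (3804 ± 638), *ctb-1* (3040 ± 471), ND1 (2241 ± 264) and *ctc-1* (2014 ± 253) (SD, n = 6 libraries each). Neighbours among these 6 overlapped in their ranges in both groups. Within a library the order was steadier. *ctc-1* lay above *ctb-1* in 6 of 6 Δ*lpp* libraries. In 6 of 6 BW25113 libraries *ctb-1* lay above ND1, and ND1 above *ctc-1*. These orders rest on the length the authors divided by. For ND1 the values put it at 45.5% of that of *ctc-1*, where the gene lengths give 54.5%, so another length could change the order. *nduo-5* and *nduo-4* followed in both groups with overlapping ranges, then *nduo-6* and *nduo-2*, whose ranges overlapped with no neighbour.

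The make-up of the summed counts of the 10 genes showed the same shift. *ctc-1* made up 25.4% ± 1.18 of that sum in the Δ*lpp* libraries and 18.4% ± 0.638 in the BW25113 libraries (SD, n = 6 each). The ranges, 24.1% to 26.7% in the Δ*lpp* libraries and 17.7% to 19.3% in the BW25113 libraries, did not overlap. The share of *ctc-3* was also higher without overlap, at 18.5% to 21.2% in the Δ*lpp* libraries and 17.4% to 18.2% in the BW25113 libraries. On the other side, *atp-6* made up 8.19% ± 0.769 in the Δ*lpp* libraries and 11.2% ± 0.684 in the BW25113 libraries. *ctb-1* made up 14.4% ± 0.924 in the Δ*lpp* libraries and 17.7% ± 0.491 in the BW25113 libraries. *nduo-4* made up 4.90% ± 0.742 in the Δ*lpp* libraries and 6.20% ± 0.191 in the BW25113 libraries. None of these 3 overlapped between the groups, while the shares of the other 5 genes did. Shares of a sum are tied together, so the share of a gene can rise because those of others fall.

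**Figure D3:**
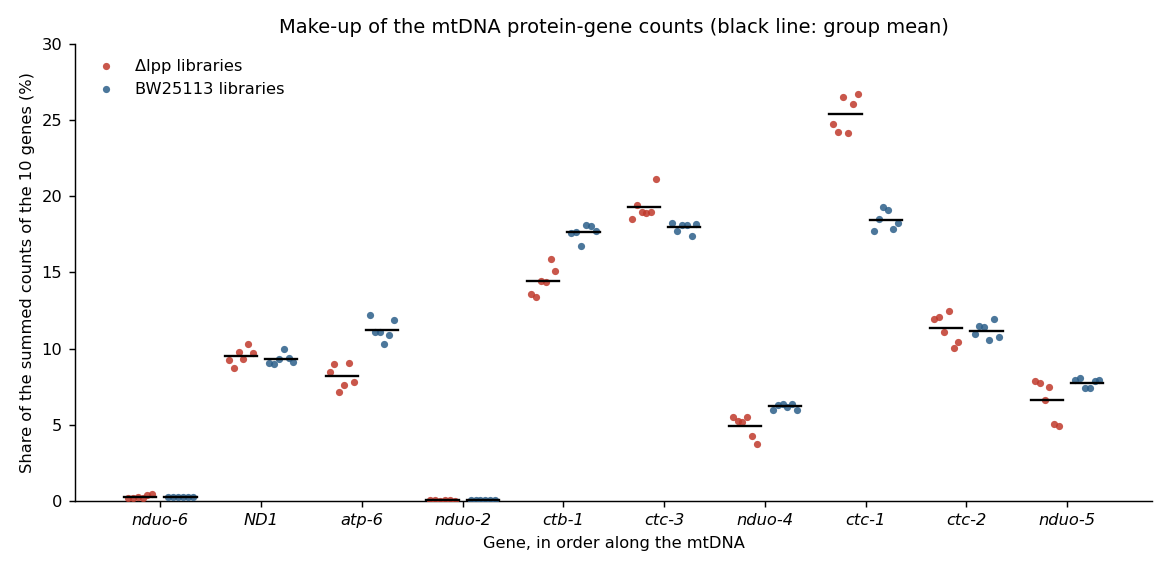
Points give each gene's percent of the summed counts of the 10 mtDNA genes in each library, in the order of the genes along the mtDNA, with Δ*lpp* libraries in red to the left of BW25113 libraries in blue and a black line at each group mean. *ctc-1* and *ctc-3* lie higher in the Δ*lpp* libraries without overlap, and *atp-6*, *ctb-1* and *nduo-4* lie lower without overlap.

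A fit of all genes with that sum as the library size does not settle whether these shares differ beyond the spread between libraries. Its standard errors were nearly alike for the 10 genes, at 0.265 to 0.290 on the log2 scale, also where the shares varied little between libraries. In that fit 0 of the 10 passed a p of 0.05 in edgeR's quasi-likelihood test, adjusted or not, where 94.8% of all tested genes passed after adjustment. The count was 3 with Δ*lpp* replicates 5 and 6 both left out (93.3% of all tested genes) and 1 with the geometric mean in place of the sum (95.5%). Nothing is read from these counts, and the shares stand as a description.

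Ratios within a library do not depend on the scaling between libraries. *atp-6* over *ctc-1* in TPM was 1.05 to 1.47 in the Δ*lpp* libraries and 2.19 to 2.78 in the BW25113 libraries. *ctb-1* over *ctc-1* was 0.850 to 0.951 in the Δ*lpp* libraries and 1.36 to 1.58 in the BW25113 libraries. Within complex IV, *ctc-2* over *ctc-1* was 1.17 to 1.55 in the Δ*lpp* libraries and 1.72 to 2.04 in the BW25113 libraries. These ranges did not overlap, whereas *nduo-4* over *nduo-5* did, at 0.857 to 1.07 in the Δ*lpp* libraries and 0.957 to 1.10 in the BW25113 libraries.

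The nuclear-encoded subunits of the same complexes were lower too, but by less. Of 72 tested nuclear genes of complexes I to IV, cytochrome c and ATP synthase, 17 were called lower and 0 higher, where 15.6% of all tested genes were called lower and 12.1% higher. All 72 were lower at an adjusted p under 0.05 alone, where 32.3% of all tested genes were, although *nuo-4* and *asb-1* turned to above 0 on library size alone. The 72 had a median log2 fold change of -0.87, and of -0.42 on library size alone, where 2 were called. Their libraries did not overlap on the TMM scale for 70 of the 72, where that was so for 23.7% of all tested genes. In TPM, in which the mtDNA genes were compared above, many of the 72 overlapped between the groups, most of them in complex I. Of all tested genes, 13.5% were lower without overlap in TPM. Among the nuclear genes that overlapped were *cox-6A*, *nduf-5*, *asg-1*, *cyc-2.1*, *nuo-4*, *lpd-5*, *nduf-2.2*, *nduf-6*, *sdha-2*, *ucr-2.1*, *ucr-2.3*, *asb-1* and *hpo-18*. The nuclear-encoded TPM summed over each of complexes I to IV and ATP synthase was still lower without overlap. Of the mtDNA genes, 9 lay below the lowest (-1.56) of the 65 nuclear subunits of complexes I, III, IV and ATP synthase, and 3 of those 65 lay below *ctc-1*, the highest mtDNA gene.

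Of 33 nuclear complex I genes, 5 were called lower, a share close to the 15.6% of all tested genes, and the median was -0.81. On library size alone, where 11.4% of all tested genes were called lower, 0 of the 33 were, and the 2 nuclear genes still called were *ucr-2.2* of complex III and the cytochrome c gene *cyc-2.2*. The lowest was *gas-1*, which encodes a core subunit near the ubiquinone site, at -1.25 (SE 0.0985, adjusted p = 2.70e-09). It was followed by *T20H4.5* at -1.18, *nduf-9* at -1.11, *nuo-3* at -1.05 and *C16A3.5* at -1.03. The highest was *nuo-4* at -0.40 (SE 0.0776), which was 0.04 on library size alone. Of the 11 nuclear complex III genes, 3 were called lower, and the median was -0.93. The core protein gene *ucr-2.2* was lowest at -1.56 (SE 0.102, adjusted p = 2.06e-10), *ucr-1* was at -1.02 and *R07E4.3* at -1.003, and *ucr-2.3* was highest at -0.74.

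Of 7 nuclear complex IV genes, *cox-6C* at -1.08 (SE 0.128) and *cox-4* at -1.02 (SE 0.109) were called lower, where 15.6% of all tested genes were. The median was -0.88, and *cox-6A* was highest at -0.63. Of 14 tested nuclear ATP synthase genes of 15 on the list, 4 were called lower, where 15.6% of all tested genes were. The median was -0.93. The lowest was *asg-2*, a gene of the membrane part, at -1.40 (SE 0.113, adjusted p = 3.94e-09). It was followed by *asb-2* at -1.23, *atp-1*, which encodes the α subunit, at -1.19, and *atp-2*, which encodes the catalytic β subunit, at -1.14. The highest was *asb-1*, whose product is the b subunit like that of *asb-2*, at -0.26 (SE 0.0899), and it turned to 0.20 on library size alone.

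Complex II, which holds no mtDNA-encoded subunit, had a median of -0.92 over its 5 genes, with *mev-1* lowest at -1.11 (SE 0.116) and *sdha-2* highest at -0.56. *mev-1*, a membrane anchor subunit, and *sdha-1* at -1.07, a flavoprotein subunit, were called lower, where 15.6% of all tested genes were. Of the 2 cytochrome c genes, *cyc-2.1* was at -0.70 (SE 0.0895). The other, *cyc-2.2*, held 2 to 15 counts per Δ*lpp* library and 249 to 401 counts in the BW25113 libraries, and a log2 fold change of -5.63 (SE 0.246, adjusted p = 7.44e-13). Sperm marker genes were lower as well, with 9 of 9 tested called lower, where 15.6% of all tested genes were. Their summed levels were 5.09 to 9.82 CPM (a count relative to the library's scaled total) in the Δ*lpp* libraries and 245 to 448 CPM in the BW25113 libraries. *msp-10* was at 0 in every library. The part of the sperm genes in the result was not tested.

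**Figure D4:**
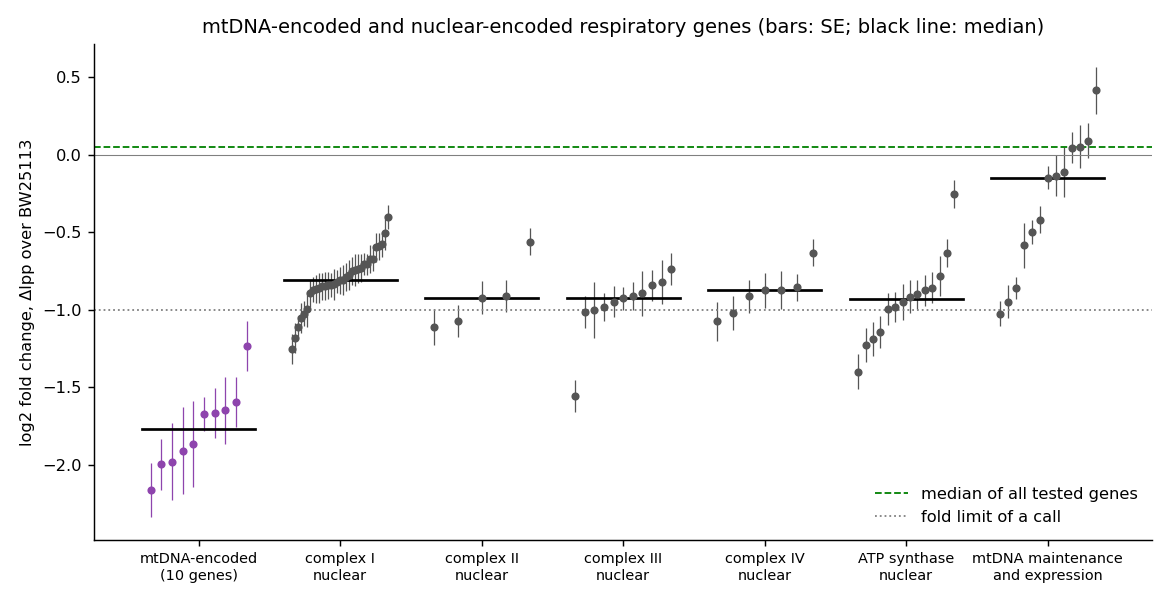
Points give the log2 fold change, Δ*lpp* over BW25113, of the 10 mtDNA genes (purple) and of the tested nuclear genes of each complex and of mtDNA maintenance and expression (grey), with SE bars, a black line at each median and a dashed green line at the median of all tested genes (0.05). The mtDNA genes have a median of -1.77, the nuclear lists of the complexes have medians between -0.93 and -0.81, and the 2 cytochrome c genes are not drawn.

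The ratio of mtDNA-encoded to nuclear-encoded subunits, each as summed TPM, was therefore compared within each library. For complex I it was 0.188, 0.365 and 0.421 (lowest, median and highest) in the Δ*lpp* libraries, against 0.524, 0.638 and 0.708 in the BW25113 libraries. For complex III it was 0.227, 0.390 and 0.452 in the Δ*lpp* libraries, against 0.582, 0.706 and 0.796 in the BW25113 libraries. For ATP synthase it was 0.104, 0.193 and 0.251 in the Δ*lpp* libraries, against 0.306, 0.425 and 0.50 in the BW25113 libraries. These 3 ratios were lower in every Δ*lpp* library than in any BW25113 library. For complex IV, which holds *ctc-1*, the ratio was 0.658, 1.29 and 1.51 in the Δ*lpp* libraries, against 1.35, 1.76 and 2.01 in the BW25113 libraries, and the groups overlapped.

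**Figure D5:**
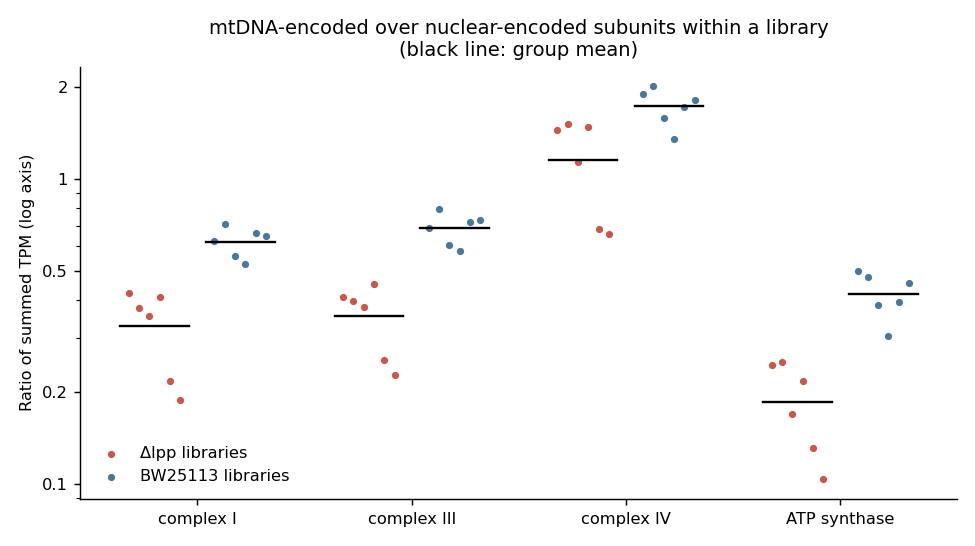
Points give, for each library, the summed TPM of the mtDNA-encoded subunits over the summed TPM of the nuclear-encoded subunits of the same complex on a log axis, with Δ*lpp* libraries in red to the left of BW25113 libraries in blue and a black line at each group mean. The groups are apart for complex I, complex III and ATP synthase and overlap for complex IV, where the highest Δ*lpp* library reaches 1.51 and the lowest BW25113 library 1.35.

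Genes that copy, pack, transcribe and translate the mtDNA did not share one direction. Of 13 tested, 1 was called lower and 0 higher, where 15.6% of all tested genes were called lower and 12.1% higher. At an adjusted p under 0.05 alone 6 were lower and 1 higher, where 32.3% of all tested genes were lower and 32.9% higher. The median was -0.15, which turned to 0.30 on library size alone. *gfm-1*, which encodes a mitochondrial translation elongation factor, was lowest at -1.03 (SE 0.0799, adjusted p = 2.35e-09), and lost its call on library size alone at -0.57. Leaving out BW25113 replicate 4 or 5 removed that call, and leaving out BW25113 replicate 3, or Δ*lpp* replicates 5 and 6, gave 2 calls. *hmg-5*, the gene of an mtDNA packaging protein, was highest at 0.41 (SE 0.153, adjusted p = 0.0240).

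The other mtDNA features gave few or no counts or were removed with ribosomal RNA. The 2 short protein genes, both of complex I, were also called lower, though ND4L at -0.82 and *nduo-3* at -0.95 fell short of the fold limit on library size alone. ND4L (WBGene00010958, unnamed in the table) held 31 to 94 counts per Δ*lpp* library and 62 to 136 counts in the BW25113 libraries, with a log2 fold change of -1.27 (SE 0.230, adjusted p = 1.00e-04). *nduo-3* held 11 to 31 counts per Δ*lpp* library and 29 to 56 counts in the BW25113 libraries, with a log2 fold change of -1.38 (SE 0.233, adjusted p = 4.76e-05). All 22 mtDNA tRNA genes were at 0 in every library. By counting error alone this allows up to 0.127 to 0.142 CPM in a Δ*lpp* library and 0.123 to 0.148 CPM in a BW25113 library (3 counts of its total). That is not a limit on the level in the worms, since the cause of the zeros was not tested.

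Relative to the summed counts of the 10 genes, both mtDNA ribosomal RNA genes were higher in every Δ*lpp* library than in any BW25113 library. The longer one (WBGene00014472, 10403 to 11354) had a log2 fold change of 0.13 (SE 0.368, adjusted p = 0.775), and 0.61 on library size alone. It had 1501, 1359, 1380, 1648, 327 and 398 counts in Δ*lpp* replicates 1 to 6, against 692, 836, 581, 567, 993 and 658 counts in BW25113 replicates 1 to 6. Replicates 5 and 6 of the Δ*lpp* group were thus the lowest of the 12 libraries here too, while its other 4 libraries were the highest. Without those 2 libraries the log2 fold change was 0.54 (SE 0.136, adjusted p = 0.00288). It stood at 0.247% to 0.617% of the sum in the Δ*lpp* libraries and 0.133% to 0.178% in the BW25113 libraries. The shorter one (WBGene00014454, 898 to 1593) had a log2 fold change of -0.61 (SE 0.180, adjusted p = 0.00713). It was -0.37 without those 2 libraries, and -0.15 on library size alone with all 12 libraries. The shorter one stood at 0.652% to 0.875% of the sum in the Δ*lpp* libraries and 0.311% to 0.378% in the BW25113 libraries. Because ribosomal RNA was removed during preparation, these values are what was left and not the level of the RNA.

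Within the Δ*lpp* group, 9 of the 10 genes varied more than most genes. Their SD over libraries was 0.408 to 0.945 on the log2 scale, where the median of the 8129 genes that averaged 10 CPM or more was 0.155, and 0.221% to 2.82% of those genes had a larger SD. *nduo-6* had an SD of 0.222, which 19.5% of the genes exceeded. In the BW25113 group the SDs of the 10 genes, 0.153 to 0.317, lay around the median of 0.205. In Δ*lpp* replicate 5, *nduo-5* and *nduo-4* stood at 0.541 and 0.610 times the geometric mean of that group. In replicate 6 they stood at 0.478 and 0.481 times, against 1.09 and 1.07 times for *nduo-6* in replicates 5 and 6.

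After group means were subtracted, the 36 pairs of genes that leave out *nduo-6* had correlations of 0.834 to 0.990 over the 12 libraries, with a median of 0.962. The 9 pairs with *nduo-6* had correlations of -0.179 to 0.154. Δ*lpp* replicates 5 and 6 weigh on both ranges. There *nduo-6* stood at 1.09 and 1.07 times its group's geometric mean, and all other genes stood below theirs, ND1 at 0.753 and 0.64 times. In each BW25113 library the other genes lay on the same side of their means as *nduo-6*, except *atp-6* and *nduo-2* in replicate 1. Correlations without those Δ*lpp* libraries were not computed. The correlations given are descriptions over points that share libraries and scaling factors. The genes outside the mtDNA whose levels followed the summed level of the 10 most closely, among 8118 compared in the same way, were *ttr-8* (r = 0.921), *kxd-1* (0.906), *F54F7.3* (0.903), *Y47A7.2* (0.901) and *clec-5* (0.900). Their differences between the diets went either way, with log2 fold changes of -0.60, 0.23, 0.05, 0.68 and 0.93.

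Marker genes of body wall muscle were also lower in the Δ*lpp* group. Of 9 muscle markers, 7 were called lower, where 15.6% of all tested genes were, with a median of -1.34. On library size alone 3 of the 9 were called lower, where 11.4% of all tested genes were, with a median of -0.89. Their summed levels were 5737 to 7342 CPM in the Δ*lpp* libraries and 14270 to 20353 CPM in the BW25113 libraries. Of 9 intestine markers 2 were called lower (median -0.68), and 0 on library size alone, while at an adjusted p under 0.05 alone 6 were lower and 1 was higher. Of 7 hypodermis markers 3 were called lower (median -0.75), also on library size alone, while at an adjusted p under 0.05 alone 5 were lower and 2 were higher. Neuron markers were higher at an adjusted p under 0.05 for 9 of 9 (median 0.67), where 32.9% of all tested genes were, and 1 was called higher, where 12.1% of all tested genes were. Of 10 germline markers 1 was called lower (median 0.00), of 8 oocyte and eggshell markers 1 was called higher (median 0.34), and of 7 pharynx markers 1 was called higher (median 0.13). At an adjusted p under 0.05 alone, 3 germline markers were lower and 0 higher. For oocyte and eggshell markers 5 were higher and 0 lower, and for pharynx markers 3 were higher and 1 lower. On library size alone the medians were 0.46 (germline), 0.81 (oocyte and eggshell), 0.58 (pharynx) and 1.11 (neuron), where that of all tested genes was 0.50. Of 8 embryo markers 3 were tested and 1 was called higher. That gene, *tbx-37*, held 14 to 43 counts per Δ*lpp* library and 4 to 15 counts in the BW25113 libraries, and its groups overlapped. Another of the 3, *elt-1*, was also counted among the hypodermis markers. The part of these cell types in the levels of the mtDNA genes was not tested.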

How the data were processed

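RNA from whole worms was sequenced in 12 libraries, 6 per diet. Per the methods and the submitters' processing notes, the authors used Seqtk to filter reads, HISAT2 to align them to WBcel235, Stringtie for the fragment count of each gene and RNAnorm for TPM. The deposited table holds estimated counts, of which 8.97% are not whole (none for the 10 genes), and the authors' TPM values, scaled by length and library total. The length behind TPM is shorter than the gene model for short genes. Group-mean TPM columns were not used, and no per-library column was left out. The strand setting of the counting, tool versions and the handling of reads with several matches are not given in the sources used here.

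Counts were rounded, filtered with filterByExpr (minimum count 10, minimum total 15), scaled by TMM and fitted across all genes with the robust quasi-likelihood test of edgeR 4.0.16, in place of the DESeq2 that the study's methods cite, with no covariate. SEs were taken from the log2 fold change and its F statistic. A call needed a log2 fold change beyond 1 in size and an adjusted p under 0.05. Alternatives were RLE, upper quartile and library-size scaling, TMM from features outside the mtDNA, DESeq2 1.42.0, no filter, 10 counts in every library, limma 3.58.1 on log2 values of TPM plus 1 or plus 0.1, a replicate block and leaving out each library. Leaving out Δ*lpp* replicates 5 and 6 together, and removing ribosomal RNA genes first with library size only, were added after seeing the data. Software was R 4.3.3 and Python 3.11.15 with matplotlib 3.10.9, pandas 2.3.3 and numpy 2.4.6, and the procedure was tested on simulated data.

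The genes, lists and markers were chosen with earlier results of these data known. Named were all 10 genes, the highest, the lowest and, where no more than 5 were called, every called gene of each nuclear list, the other mtDNA protein and ribosomal RNA genes, and the 5 genes most alike in pattern averaging 10 CPM or more. Of 16 genes listed for mtDNA maintenance and expression 13 were in the table, and of 10 intestine markers 9 were. All libraries of a group differed from each other beyond sampling noise (chi-square per degree of freedom at least 4.35). Of the mtDNA protein genes, *nduo-3*, ND4L and *nduo-2* rest on the fewest counts.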

Additional observations from a re-analysis of the deposited data

Results flagged for a closer look

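Of 98 groups of 6 values examined for a library far from the others, 2 were flagged, and chance flags about 1 group in 20. *ctc-3* made up 21.2% of the summed counts of the 10 genes in Δ*lpp* replicate 6, against 19.4% in the nearest library of that group. *ctb-1* made up 16.7% of that sum in BW25113 replicate 3, against 17.6% in the nearest library of that group.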

How the results depend on the processing

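Of 240 alternative values of the log2 fold changes of the 10 genes, 236 kept their direction and their side of the threshold. The other 4 were those of *ctc-1*, which fell short of the fold limit on library size only (-0.78), on log2(TPM + 1) and log2(TPM + 0.1) (-0.67 each) and on library size only with ribosomal RNA genes removed (-0.80). Leaving out any one library kept all 10 called. Over all genes, 2379 were called lower and 1849 higher. The lower count was 1178 with 10 counts in every library and 1244 on log2(TPM + 1). The higher count was 3720 on library size only, 1032 with 10 counts in every library, 4558 on log2(TPM + 0.1) and 3595 on library size only with ribosomal RNA genes removed. The 17 nuclear respiratory genes called lower became 10 with upper quartile factors, 2 on library size only, 1 on either TPM scale and 2 on library size only with ribosomal RNA genes removed, and 12 to 22 without single libraries. Their median of -0.87 became -0.42 on library size only, -0.31 on either TPM scale and -0.44 on library size only with ribosomal RNA genes removed. For mtDNA maintenance and expression the count called lower, 1, became 0 with upper quartile factors, library size only, 10 counts in every library, either TPM scale or library size only with ribosomal RNA genes removed, 2 without Δ*lpp* replicates 5 and 6, and 0 to 2 without single libraries. Its count called higher, 0, became 1 on either TPM scale. Its median of -0.15 became 0.30 on library size only, 0.41 on log2(TPM + 1), 0.48 on log2(TPM + 0.1) and 0.28 on library size only with ribosomal RNA genes removed. In the fit relative to the sum of the 10 genes, 0 of them passed, against 1 with the geometric mean and 3 without Δ*lpp* replicates 5 and 6, from which nothing is read. Relative to the sum, *nduo-6* (0.15) turned to -0.29 and ND1 (0.03) to -0.0055 without those libraries. Without single libraries *nduo-6* lay between -0.034 and 0.25 and *ctc-2* between -0.0086 and 0.053. The cause of these shifts was not tested.

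With the replicate block 10 of the 10 genes were called lower, *atp-6* at -2.19 and *ctc-1* at -1.27, and 2356 of all genes were called lower and 1908 higher. Correlations between same-numbered libraries were -0.123 to 0.258, and 2 of 6 Δ*lpp* libraries were most like their own number, so the numbers were not taken to pair the samples. Among the 10 genes *nduo-2* had the fewest counts, with as few as 11 in a library.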
